A study of Homo sapiens with 9 samples.

Results

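The small nucleolar RNA host genes and related short-ORF noncoding RNAs were described in human HEK293T cells. The set comprised every gene entry named SNHG followed by a number, together with GAS5, ZFAS1, DANCR and EPB41L4A-AS1. This gave 29 entries under 28 names, SNHG28 standing under 2 identifiers, of 58735 genes listed. Of the 29, 23 had enough counts to be tested, 3 had counts but were too low for a test, and 3 had no count in any library.

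Small nucleolar RNAs (snoRNAs) are excised from introns of longer transcripts and guide chemical modification of ribosomal RNA. Box C/D snoRNAs direct ribose methylation and box H/ACA snoRNAs direct pseudouridylation, while the related small Cajal body RNAs (scaRNAs) modify spliceosomal RNAs. In most of the host genes described here the introns carry the guide RNA. The spliced exons form a polyadenylated RNA, in most of them with no long reading frame. Several of these spliced RNAs begin with the C-plus-pyrimidine start known as a 5′ terminal oligopyrimidine (5′ TOP) motif, as ribosomal protein mRNAs do, so that growth signals through mTORC1 control their engagement with ribosomes. Ribosomes stop early on them, and nonsense-mediated decay (NMD) then removes them. GAS5, first found in growth-arrested cells, accumulates when translation is blocked for this reason.

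All 9 libraries came from HEK293T, a human embryonic kidney line carrying SV40 large T antigen. The cells carry PRPS1 with an HA tag and the dTAG degron, and PRPSAP1 with the BromoTag degron (the titles add a V5 tag), in every group including the control. PRPS1 makes phosphoribosyl pyrophosphate, the ribose donor of purine and pyrimidine synthesis, and PRPSAP1 is an associated protein of that enzyme. The 3 groups were cells given dTAG47 (500 nM, 24 h), a degrader that recruits CRBN to the dTAG, cells given AGB1 (500 nM, 24 h), which recruits VHL to the BromoTag, and cells given DMSO, with 3 libraries each. RNA was selected with poly-T beads, and no source used here says whether the line is 1 clone or whether the libraries came from separate cultures, so p-values reflect only the scatter among these libraries, part of which may be technical.

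Total counts ran from 27964128 to 44803380 per library, and levels are given as CPM, the count scaled to the library total after TMM, which corrects totals for composition. In these libraries 3 counts corresponded to between 0.0670 and 0.107 CPM. The degraders act on protein, so mRNA does not check the depletion: PRPS1 mRNA averaged 109.9 ± 3.49 CPM with dTAG47 and 103 ± 3.77 CPM in DMSO, and PRPSAP1 mRNA averaged 29.1 ± 1.67 CPM with AGB1 and 29.4 ± 6.64 CPM in DMSO (SD, n = 3 each). Of 5 markers for the labelled epithelial cell type, KRT18 averaged 49.1 CPM with dTAG47, 54.5 CPM with AGB1 and 52.3 CPM in DMSO, and KRT8 averaged 33.4 CPM with dTAG47, 27.4 CPM with AGB1 and 33.3 CPM in DMSO. For KRT8 the AGB1 value was -0.28 on the log2 scale (SE 0.09, edgeR adjusted p 0.366). CDH1 averaged 6.81 CPM with dTAG47, 6.61 CPM with AGB1 and 8.21 CPM in DMSO, EPCAM stood at 1.69 to 2.47 CPM, and KRT19 had 6 counts in all 9 libraries together. Of 5 kidney or neural features of HEK293 cells, the neurofilament gene NEFM was the highest. NEFM averaged 190.2 CPM with dTAG47, 209 CPM with AGB1 and 180.0 CPM in DMSO. Group means of NEFL were 96.8 to 107 CPM, of LHX1 2.69 to 3.58 CPM and of PAX2 1.26 to 1.44 CPM. PAX8 had 2 counts. All 4 tested lay above 0 with AGB1 (NEFM 0.21, SE 0.06, edgeR adjusted p 0.307). PTPRC and HBB, markers of blood cells, had 1 count each. Of the markers of other cells COL1A1 was the exception, at 29.003 CPM with dTAG47, 24.6 CPM with AGB1 and 27.3 CPM in DMSO, and the other 5 stood under 0.2 CPM in each group. Counts in dTAG47 1 followed the GC content of the genes more than in any other library: across genes, the rank correlation of a gene's deviation with its GC content was 0.62 there, against -0.38 to 0.27 in the other 8 libraries. DMSO 1 (-0.38) and dTAG47 2 (-0.33) had the lowest values, and results are given below without dTAG47 1 and DMSO 1 too.

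The spliced host RNAs were first examined at their annotated starts, because the 5′ TOP motif is the feature they share with ribosomal protein mRNAs. In the GENCODE 29 transcripts, 14 of 29 host entries (48.3%) had at least 1 transcript whose base 1 was C followed by at least 4 pyrimidines, against 6.58% of 58676 genes and 4.11% of 14991 long noncoding RNA genes. Among the 86 genes of cytosolic ribosomal proteins the share was 77.9%. Counted by transcript, 33 of 258 host transcripts (12.8%) began this way, against 2.41% of all 206534 transcripts and 20.2% of ribosomal protein transcripts. Genes with more annotated transcripts have more chances to match, and GAS5 alone has 29. For 9 of the 14, those chosen by eye because C or CC is followed by TTT, the first 30 bases are given, 5′ to 3′, read from GENCODE 29 on GRCh38, with the initial pyrimidine run in capitals.
GAS5: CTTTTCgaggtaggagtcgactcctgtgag
SNHG16: CTTTTCgaggtcggccgcgtggctggaaga
SNHG19: CTTTTCggggtcgagtccgagggggaagag
SNHG5: CTTTTacgtcggccttcgcgagcgtctggg
SNHG8: CTTTCacattcgggaagcgtcgggattagg
ZFAS1: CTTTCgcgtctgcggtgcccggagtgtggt
SNHG25: CTTTCagcgcctgcaggttccgggaggtca
SNHG3: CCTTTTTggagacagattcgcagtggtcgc
SNHG4: CCTTTCCCCTCCggcctctgccggtgctgc
They lie at chr1:173867960-173867989 (minus) for GAS5, chr17:76557769-76557798 (plus) for SNHG16, chr16:2155329-2155358 (minus) for SNHG19, chr6:85678704-85678733 (minus) for SNHG5, chr4:118278758-118278787 (plus) for SNHG8, chr20:49278642-49278671 (plus) for ZFAS1, chr17:64145970-64145999 (plus) for SNHG25, chr1:28506043-28506072 (plus) for SNHG3 and chr5:139274102-139274131 (plus) for SNHG4, with the strand in parentheses. GAS5 and SNHG16 share their first 11 bases although they lie on different chromosomes. The other 5 of the 14 were SNHG1, SNHG6, SNHG11, SNHG12 and SNHG18, with runs of 5, 7, 6, 5 and 21 pyrimidines, SNHG18 having no count in any library. The bases of SNHG6 were left out of the choice by eye, whatever their letters. DANCR, EPB41L4A-AS1, SNHG7, SNHG10, SNHG15 and SNHG17 had no such transcript in this annotation, which says only that no annotated start has these letters.

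**Figure D1:**
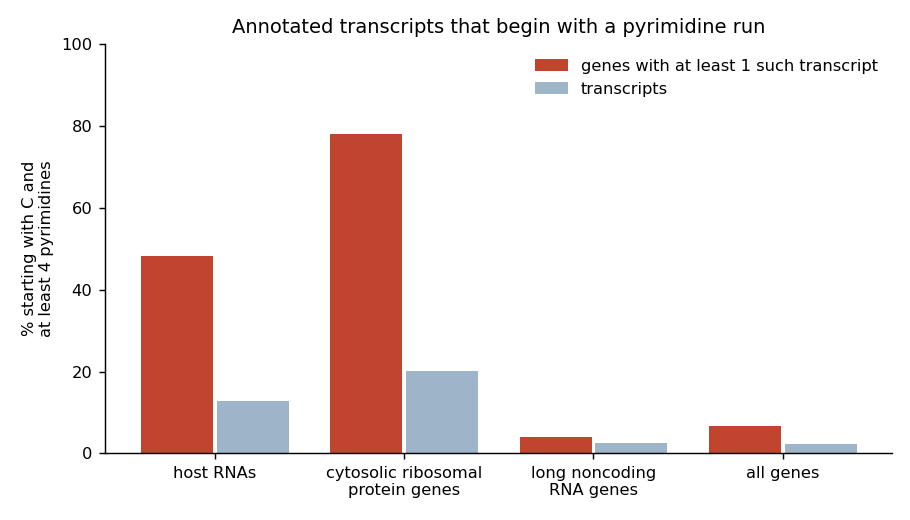
Percentage of genes with at least 1 annotated transcript beginning with C and at least 4 pyrimidines (red) and percentage of transcripts beginning so (blue), for the 29 host entries, 86 cytosolic ribosomal protein genes, 14991 long noncoding RNA genes and all 58676 genes. The host RNAs (48.3% of genes) lie between the ribosomal protein genes (77.9%) and all genes (6.58%).

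RefSeq promoters (GRCh38.p14) were matched by symbol for 24 hosts. The letters TATAA, the core of a TATA box, stood on the coding strand between 40 and 21 bases before the RefSeq start in 6 of the 24 (25%), against 4.07% of 27305 promoters of the same length. A C followed by 4 pyrimidines beginning within 10 bases of the start was found in 13 of the 24 (54.2%), against 32.3% of all promoters. The RefSeq start is not always a GENCODE start. In GAS5, SNHG14 and SNHG27, among others, it lay upstream of the deposited gene. The GAS5 window, counted as having neither motif, therefore does not hold the GAS5 start printed above. The 6 promoters are shown as 75 bases with TATAA in capitals, the annotated start being base 46.
SNHG5: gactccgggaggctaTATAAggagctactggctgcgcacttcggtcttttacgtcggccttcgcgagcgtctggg
SNHG8: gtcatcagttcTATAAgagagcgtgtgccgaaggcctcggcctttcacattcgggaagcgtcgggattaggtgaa
SNHG19: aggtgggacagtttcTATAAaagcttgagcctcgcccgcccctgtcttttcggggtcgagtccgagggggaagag
ZFAS1: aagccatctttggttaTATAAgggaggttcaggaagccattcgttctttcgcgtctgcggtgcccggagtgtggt
SNHG7: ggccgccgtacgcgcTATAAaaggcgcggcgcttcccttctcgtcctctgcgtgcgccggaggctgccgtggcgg
SNHG12: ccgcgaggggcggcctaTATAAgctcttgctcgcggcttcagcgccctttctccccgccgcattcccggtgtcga
They lie at chr6:85678704-85678778 (minus) for SNHG5, chr4:118278717-118278791 (plus) for SNHG8, chr16:2155329-2155403 (minus) for SNHG19, chr20:49278597-49278671 (plus) for ZFAS1, chr9:136728155-136728229 (minus) for SNHG7 and chr1:28581844-28581918 (minus) for SNHG12. In SNHG5, SNHG8, SNHG19 and ZFAS1 the shown bases hold both the TATAA and, near base 46, the pyrimidine start printed above. These matches describe letters in a window, and no binding was measured.

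The short-ORF label was checked on a representative transcript of each entry. The SNHG28 entry that had counts is annotated as protein-coding, and its transcript examined here had 408 bases, against 8100 exonic bases in all. Of the 29, 28 had an AUG, and the reading frame from the first AUG ran over a median of 15 codons, under 100 codons in 27. ZFAS1 was the exception, with 117 codons, and SNHG9 had no AUG. The longest frame anywhere stayed under 100 codons in 25, the others being ZFAS1 (117), SNHG11 (108), EPB41L4A-AS1 (120) and SNHG14 (156). At least 1 exon junction lay 50 or more bases after the first frame, the arrangement that exon junction complexes mark for NMD, in 23 of the 29. GAS5, with a first frame of 59 codons, had 7 such junctions and SNHG1, with 5 codons, had 9. SNHG3 and SNHG7 had none on the transcript examined. Frames and junctions were not counted in other genes, so these counts do not show that the hosts differ from other noncoding RNAs.

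The host RNAs took 0.120% ± 0.00317 of all counts with dTAG47, 0.125% ± 0.00462 with AGB1 and 0.127% ± 0.00423 in DMSO (SD, n = 3 each). GAS5 made up 20.6% of the 383315 host counts, and the 5 highest hosts, GAS5, SNHG1, SNHG3, DANCR and SNHG16, made up 56.6%. Mean levels over the 9 libraries ran from 0.502 CPM for SNHG25 to 255.6 CPM for GAS5, with 14 hosts at 30 CPM or more and 19 at 5 CPM or more.

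**Figure D2:**
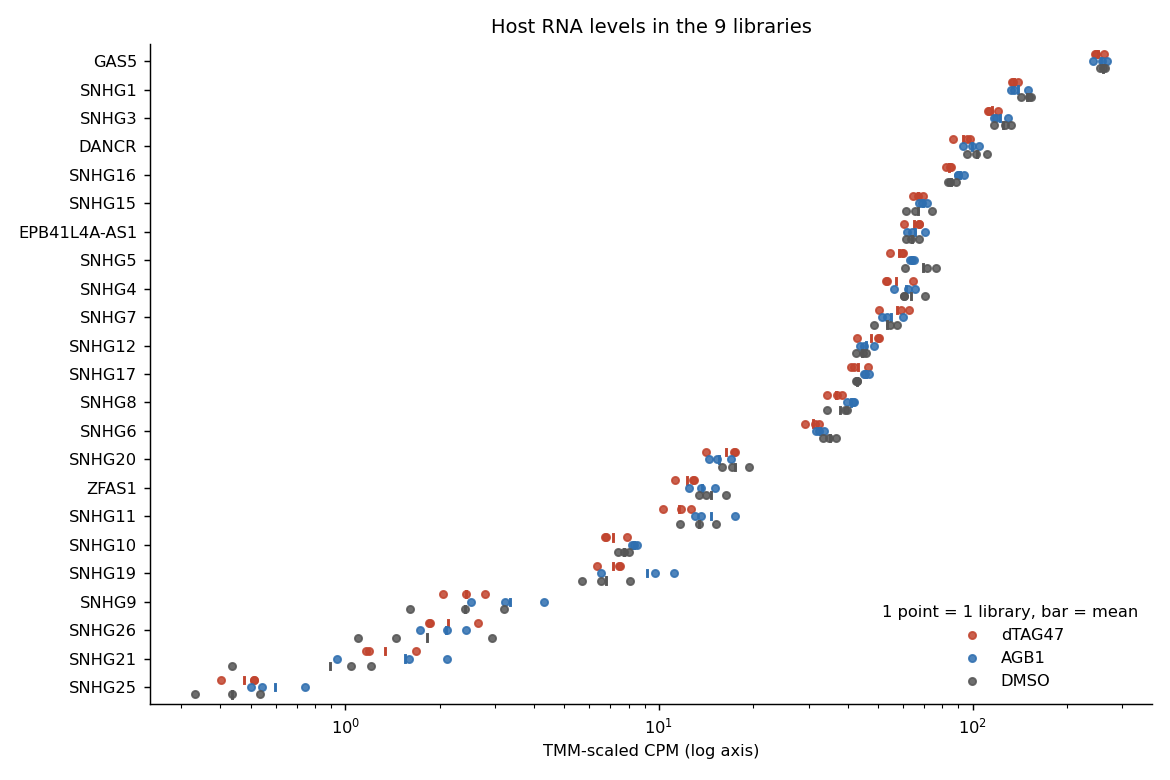
TMM-scaled CPM (log axis) of the 23 tested host RNAs, ordered by mean level, with 1 point per library and a bar at the mean of each group, dTAG47 in red, AGB1 in blue and DMSO in grey. The groups lie close together in each host compared with the spread between hosts, from 0.502 CPM for SNHG25 to 255.6 CPM for GAS5, and the points scatter most in the lowest hosts.

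Per exonic length the order changed. GAS5 remained highest at 70.4 RPKM (CPM per kilobase of exon) on average, followed by DANCR at 43.1, SNHG8 at 41.6, SNHG1 at 37.6 and SNHG3 at 29.5 RPKM. SNHG8 and SNHG19, at 38.4 and 7.68 CPM, have short exons and stood higher on this scale, SNHG19 reaching 22.4 RPKM from 342 exonic bases. DANCR and SNHG8 did not differ beyond their spread, with SDs over the 9 libraries of 3.06 and 2.96 RPKM and DANCR the higher in 7 of 9. SNHG8 was above SNHG1 in 8 of 9 libraries and SNHG1 above SNHG3 in 9 of 9. Exonic length here joins the exons of all annotated transcripts. It was 3631 bases for GAS5 and 3756 for SNHG1, against 723 and 1487 bases in the representative transcript of each. For SNHG8 it was 923 against 672 bases and for SNHG19 342 against 342. The order holds for the joined length only, and levels per length of the representative transcripts were not computed.

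The levels depend on how reads at overlapping genes were treated. In the deposited counts, 0 of 1139 genes whose exonic bases are all shared with another gene on the same strand had any count, and 0 of 710 genes whose exonic bases are all shared with a gene on the opposite strand had any, against 20994 of 41758 genes (50.3%) with no shared base. Reads on shared bases thus appear in neither gene, on either strand. In 7 of the 23 tested hosts under 70% of exonic bases were unshared. EPB41L4A-AS1 shares 49.6% of its exonic bases with EPB41L4A on the other strand, ZFAS1 keeps 53.1% unshared, and SNHG21 keeps 27.1%. Divided by unshared bases only, EPB41L4A-AS1 stood at 38.5 RPKM, against 19.4 RPKM over all its exons, SNHG6 at 41.4 against 26.4, and ZFAS1 at 11.4 against 6.05. On this scale GAS5 was still highest at 71.2 RPKM, but SNHG6 and EPB41L4A-AS1 stood above SNHG3 at 33.2. DANCR and SNHG8 stood at 48.9 and 48.5 RPKM and SNHG1 at 44.5. The strand setting of the counting is not given in the sources used here, so on unshared bases reads of a host and of RNA antisense to it cannot be told apart.

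The same counting applies to the snoRNA genes inside the hosts. Within the hosts lay 129 named snoRNA or scaRNA genes, 83 of them in SNHG14. Outside SNHG14, 0 of 25 that lie wholly inside annotated host exons had any count, while 17 of 20 that lie outside host exons did, with 4185 counts over all 9 libraries. In SNHG1, which carries SNORD22, SNORD25 to SNORD28 and SNORD30, all 6 named genes stood at 0 and 5 lay wholly in exons. Annotated exons here are those of all transcripts joined, 3756 bases in SNHG1, whose representative transcript has 1487 bases in 10 exons. A snoRNA inside the joined exons can therefore lie in an intron of a given spliced transcript. In SNHG17 the 4 SNORA71 genes lay in introns and had 72, 449, 232 and 330 counts. No named snoRNA gene lay inside GAS5, SNHG27 or either SNHG28 entry in these gene models, although the introns of GAS5 are known to carry box C/D snoRNAs. A count of 0 for a snoRNA that lies in annotated host exons therefore does not show that it was absent. Mature snoRNAs carry no poly(A) tail, and poly(A) selection leaves most of them out of such libraries.

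**Figure D3:**
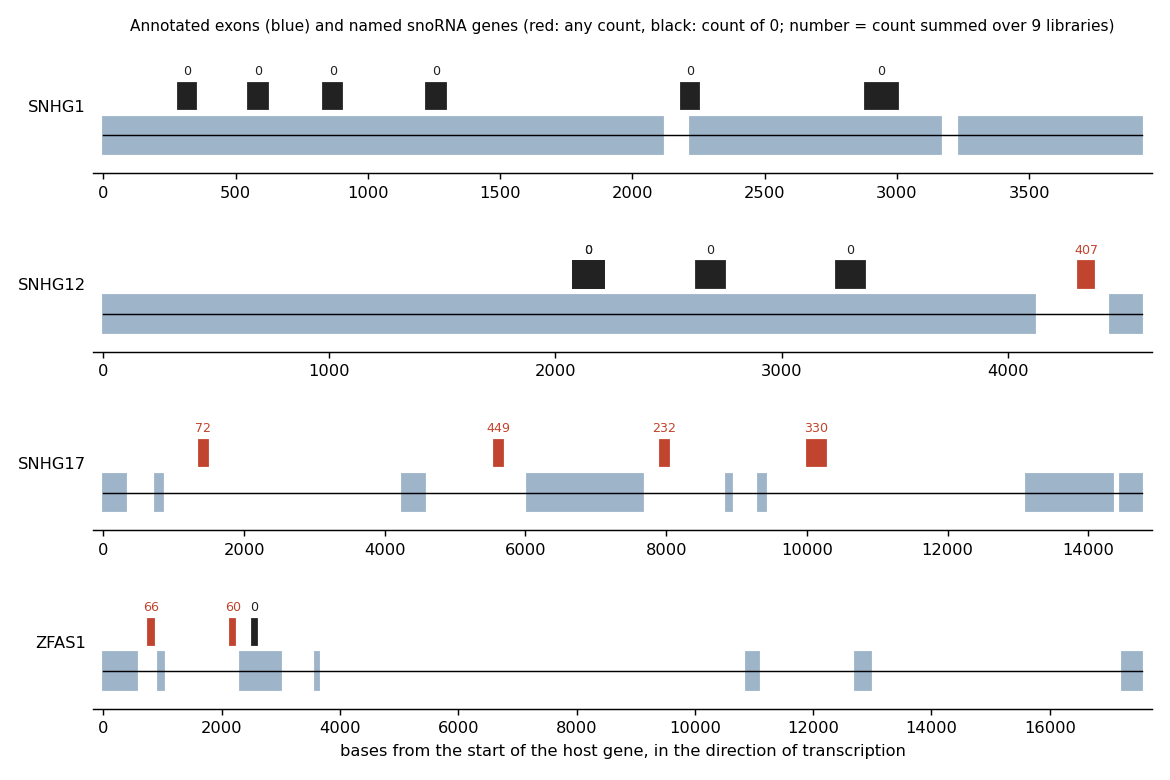
Annotated exons of all transcripts combined (blue) and named snoRNA genes (boxes above) along SNHG1, SNHG12, SNHG17 and ZFAS1, in bases from the start of each gene; red boxes had counts, black boxes had 0, and the number is the count summed over 9 libraries. Boxes wholly or partly above exons stand at 0 and boxes above introns have counts, from 60 to 449.

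No host RNA was called different after 24 h with dTAG47 or AGB1. With dTAG47, 0 of 23 tested hosts passed an adjusted p of 0.05 in edgeR's quasi-likelihood test, against 11 of all 18319 tested genes (0.0600%). With AGB1, 0 of 23 passed, against 19 of all genes (0.104%). In the direct comparison of dTAG47 with AGB1, 0 of 23 passed and 0 of all genes (0%). At an unadjusted p under 0.05 there were 2 hosts with dTAG47 (all genes 7.28%), 1 with AGB1 (7.76%) and 1 between the compounds (4.02%). Among the 14 hosts at 30 CPM or more, the 95% intervals of the log2 fold change lay within -0.42 to 0.28 for dTAG47 against DMSO and within -0.28 to 0.30 for AGB1 against DMSO. The intervals were wider in the 4 tested hosts under 5 CPM. With dTAG47 they ran from -0.57 to 0.59 for SNHG9, from -0.47 to 0.91 for SNHG26, from -0.29 to 1.45 for SNHG21 and from -1.14 to 1.38 for SNHG25. With AGB1 they ran from -0.09 to 1.06 for SNHG9, from -0.49 to 0.89 for SNHG26, from -0.09 to 1.65 for SNHG21 and from -0.81 to 1.71 for SNHG25. In bulk RNA, fewer cells with a transcript and less of it per cell cannot be told apart.

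**Figure D4:**
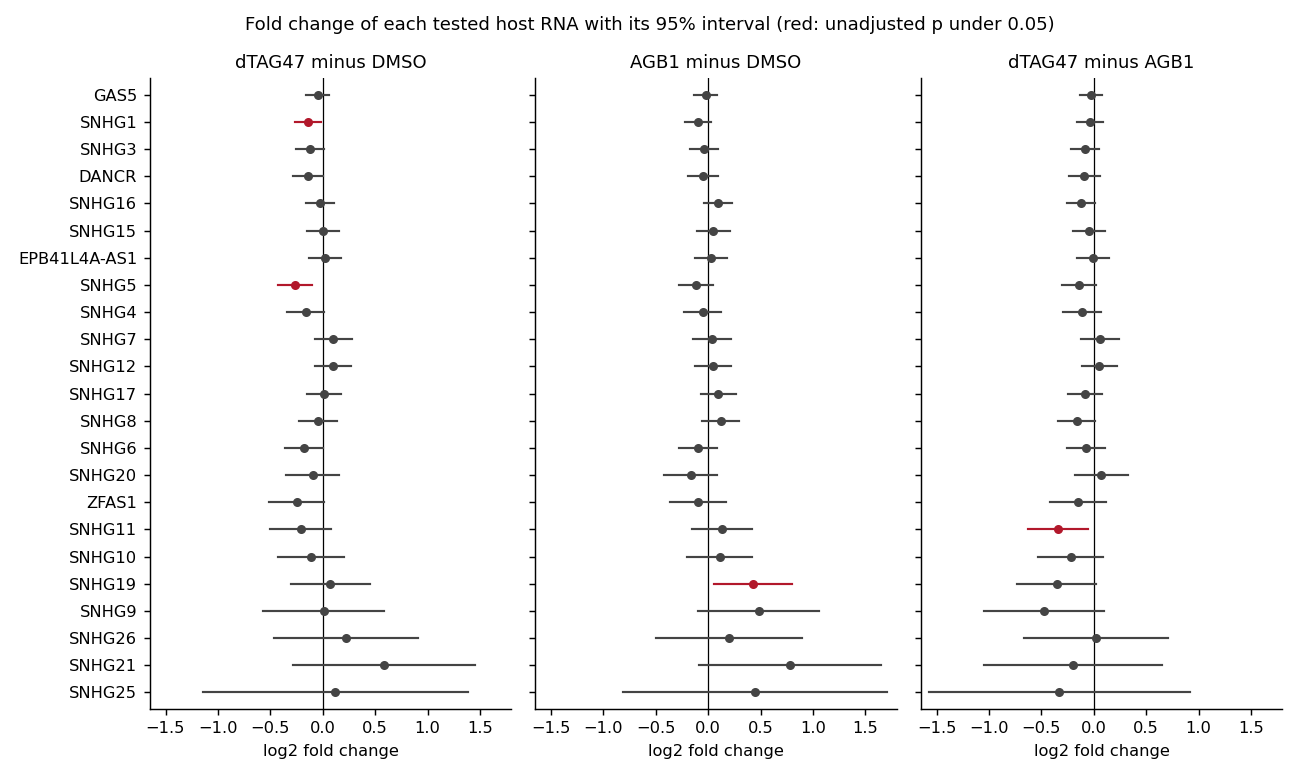
Log2 fold change of each tested host RNA (points) with its 95% interval (lines) in 3 panels, each compound minus DMSO and then dTAG47 minus AGB1, hosts ordered by level; red marks an unadjusted p under 0.05. Intervals of the 14 most abundant hosts stay within -0.42 to 0.30 in the comparisons with DMSO, and the widest belong to SNHG25 and SNHG21.

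Among hosts of box C/D snoRNAs, GAS5 (chr1:173863900-173868882, minus strand) was the most abundant. GAS5 had 245, 247 and 262 CPM with dTAG47, 268, 258 and 242 CPM with AGB1, and 255, 263 and 261 CPM in DMSO. The groups overlapped. Set against DMSO, GAS5 gave a log2 fold change of -0.05 for dTAG47 (95% interval -0.16 to 0.06, edgeR adjusted p 0.892). For AGB1 the value was -0.02 (-0.13 to 0.09, adjusted p 0.958). It was also the steadiest host, with a coefficient of variation of 3.54% over all 9 libraries.

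SNHG5 (chr6:85660950-85678748, minus strand), host of the SNORD50 snoRNAs, had the smallest unadjusted p of any host. SNHG5 had 59.7, 54.5 and 60.0 CPM with dTAG47, 63.9, 64.9 and 63.2 CPM with AGB1, and 60.9, 71.4 and 76.3 CPM in DMSO. All dTAG47 libraries lay below all DMSO and all AGB1 libraries, by little in the case of DMSO 1. Its log2 fold change with dTAG47 was -0.26 (SE 0.08, edgeR p 0.00264, adjusted p 0.352) and with AGB1 -0.12 (SE 0.08, adjusted p 0.764). Without dTAG47 1 and DMSO 1 the difference from DMSO was -0.37 with an adjusted p of 0.0961, and over all alternatives it lay between -0.37 and -0.19 with adjusted p from 0.0961 to 0.825.

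SNHG1 (chr11:62851988-62855914, minus strand), the host of SNORD22 and the SNORD25 to SNORD28 cluster, was the other host below an unadjusted 0.05 with dTAG47. SNHG1 had 134, 134 and 139 CPM with dTAG47, 132, 149.7 and 136 CPM with AGB1, and 143, 151 and 154 CPM in DMSO. Its dTAG47 libraries lay below its DMSO libraries without overlap, at a log2 fold change of -0.14 (SE 0.06, edgeR p 0.031, adjusted p 0.631), whereas AGB1 libraries overlapped both. SNHG6 (host of SNORD87) had 31.4, 32.4 and 29.1 CPM with dTAG47, 33.7, 32.5 and 31.7 CPM with AGB1, and 33.3, 34.9 and 36.8 CPM in DMSO. ZFAS1 (chr20:49278178-49295738, plus strand), host of the SNORD12 snoRNAs and transcribed antisense to the start of ZNFX1, had 12.9, 12.9 and 11.2 CPM with dTAG47, 13.6, 15.1 and 12.4 CPM with AGB1, and 13.4, 14.1 and 16.4 CPM in DMSO. Both had all dTAG47 libraries below all DMSO libraries, at -0.18 (SE 0.09, adjusted p 0.687) for SNHG6 and -0.25 (SE 0.13, adjusted p 0.705) for ZFAS1.

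SNHG16 and SNHG19 complete the box C/D hosts at 5 CPM or more. SNHG16 (chr17:76557766-76565348, plus strand), host of the SNORD1 snoRNAs, had 85.3, 81.9 and 84.4 CPM with dTAG47, 89.5, 90.1 and 94.1 CPM with AGB1, and 84.8, 83.3 and 88.5 CPM in DMSO. Here the AGB1 libraries were the high ones, above all others without overlap, at 0.09 against DMSO (SE 0.06, edgeR adjusted p 0.779). SNHG19 (host of SNORD60) had 6.37, 7.53 and 7.47 CPM with dTAG47, 6.56, 11.2 and 9.71 CPM with AGB1, and 5.69, 6.54 and 8.06 CPM in DMSO. AGB1 2 and AGB1 3 were the highest of the 9 and AGB1 1 lay among the DMSO libraries, giving 0.43 (SE 0.18, edgeR p 0.0267, adjusted p 0.552). The coefficient of variation of SNHG19 was 22.9%, against 6.19% from counting alone at its mean of 261 counts.

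The box H/ACA hosts were led by SNHG3 and DANCR. SNHG3 (chr1:28505980-28510892, plus strand), which carries the SNORA73 snoRNAs known from early cleavage of the ribosomal RNA precursor, had 121, 112 and 113 CPM with dTAG47, 117, 129.8 and 119 CPM with AGB1, and 126, 132 and 117 CPM in DMSO. DANCR (chr4:52712404-52720351, plus strand), host of SNORA26 and known as an RNA that holds epidermal progenitors undifferentiated, had 98.2, 86.3 and 95.7 CPM with dTAG47, 99.8, 105 and 93.4 CPM with AGB1, and 96.0, 102 and 111 CPM in DMSO. Both overlapped between groups, with log2 fold changes against DMSO of -0.12 and -0.14 with dTAG47 (SE 0.06 and 0.07) and -0.04 and -0.05 with AGB1.

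SNHG15 (host of SNORA9) had 69.6, 64.6 and 67.0 CPM with dTAG47, 67.6, 71.8 and 68.8 CPM with AGB1, and 61.5, 65.4 and 74.1 CPM in DMSO. EPB41L4A-AS1 (host of SNORA13, transcribed opposite EPB41L4A) had 67.3, 67.4 and 60.6 CPM with dTAG47, 70.4, 61.7 and 63.9 CPM with AGB1, and 63.7, 61.4 and 67.3 CPM in DMSO. In both the groups overlapped, and the log2 fold changes against DMSO lay between 0.00 and 0.05. SNHG4 (host of SNORA74 snoRNAs) had 52.8, 53.3 and 64.5 CPM with dTAG47, 62.4, 65.6 and 56.2 CPM with AGB1, and 60.3, 70.5 and 60.2 CPM in DMSO. Its dTAG47 value of -0.16 (SE 0.09) rested on dTAG47 1 and 2, since dTAG47 3 lay inside the DMSO range, and without dTAG47 3 it was -0.26.

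SNHG7 (host of the SNORA17 snoRNAs) had 62.7, 50.3 and 59.2 CPM with dTAG47, 51.3, 60.2 and 53.5 CPM with AGB1, and 48.5, 54.6 and 57.2 CPM in DMSO. SNHG17 (host of the SNORA71 snoRNAs) had 46.5, 41.0 and 41.8 CPM with dTAG47, 44.9, 46.7 and 45.3 CPM with AGB1, and 42.8, 42.4 and 42.9 CPM in DMSO. SNHG8 (chr4:118278709-118279823, plus strand, host of SNORA24) had 38.4, 36.9 and 34.3 CPM with dTAG47, 39.6, 41.8 and 41.5 CPM with AGB1, and 34.4, 39.1 and 39.6 CPM in DMSO. The groups of SNHG7 overlapped. In SNHG17 and SNHG8 all AGB1 libraries lay above all DMSO libraries, at 0.10 (SE 0.08) and 0.12 (SE 0.09), with edgeR adjusted p of 0.829 and 0.791. SNHG8 was also lower with dTAG47 than with AGB1 without overlap, at -0.16 (SE 0.09).

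SNHG11 (host of SNORA60 and SNORA71E) had 10.3, 12.7 and 11.8 CPM with dTAG47, 13.6, 17.5 and 13.0 CPM with AGB1, and 11.7, 15.2 and 13.4 CPM in DMSO. Every dTAG47 library lay below every AGB1 library, at -0.34 (SE 0.14, edgeR p 0.0225, adjusted p 0.999). AGB1 2 was its highest library, and without it the difference was -0.20.

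SNHG12, which carries snoRNAs of both classes, had 50.1, 42.6 and 49.8 CPM with dTAG47, 43.6, 48.4 and 45.2 CPM with AGB1, and 44.7, 45.6 and 42.5 CPM in DMSO. SNHG20, host of SCARNA16, had 17.3, 17.5 and 14.2 CPM with dTAG47, 15.3, 17.0 and 14.5 CPM with AGB1, and 15.9, 17.1 and 19.4 CPM in DMSO. SNHG10, host of SCARNA13, had 7.90, 6.75 and 6.80 CPM with dTAG47, 8.48, 8.30 and 8.19 CPM with AGB1, and 8.05, 7.39 and 7.71 CPM in DMSO. Of these, SNHG10 alone separated groups, its AGB1 libraries lying above all DMSO and all dTAG47 libraries, at 0.11 (SE 0.15) against DMSO and, for dTAG47 minus AGB1, -0.22 (SE 0.15). SNHG10 shares 20.1% of its exonic bases with GLRX5 (94.6 CPM) on the other strand.

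The lowest tested hosts were SNHG9, SNHG26, SNHG21 and SNHG25, at means of 2.73, 2.01, 1.26 and 0.502 CPM. Their log2 fold changes ran from 0.01 to 0.58 with dTAG47 and from 0.20 to 0.78 with AGB1, with SEs against DMSO of 0.28 to 0.62. SNHG25 had 154 counts in all, and its coefficient of variation of 22.8% was no larger than the 24.2% that counting gives. SNHG14, the neuronal host of the SNORD115 and SNORD116 clusters, had 34 counts, SNHG28 28 and SNHG22 17 in 9 libraries together. The second SNHG28 identifier, which shares every exonic base with another gene, SNHG18 and SNHG27 had 0, which for SNHG18 and SNHG27 allows up to 0.107 CPM in the shallowest library.

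Seen over the hosts together, most lay lower with dTAG47 than with AGB1, by small amounts. The median log2 fold change of the 23 was -0.04 for dTAG47 minus DMSO, with 10 above 0 (43.5%), against 9102 of 18319 genes. For AGB1 minus DMSO it was 0.05, with 14 above 0 (60.9%), against 9112 of 18319 genes. These comparisons share the DMSO libraries. The share above 0 with AGB1 differed by level: at 5 CPM or more 10 of 19 lay above 0 (median 0.03), at 30 CPM or more 7 of 14 (median 0.00), and under 5 CPM 4 of 4. With dTAG47, 6 of 19 lay above 0 at 5 CPM or more (median -0.10) and 5 of 14 at 30 CPM or more (median -0.05). For dTAG47 minus AGB1 the median was -0.09, with 4 above 0 (17.4%) and 19 below, against 9166 of 18319 genes above 0 and a median over all genes of 0.00. At 30 CPM or more 2 of 14 lay above 0 (median -0.08). Without overlap, 4 hosts (17.4%) were lower with dTAG47 than in DMSO, against 5.82% of all genes. Another 4 (17.4%) were higher with AGB1 than in DMSO, against 6.56%, and 5 (21.7%), namely SNHG5, SNHG8, SNHG10, SNHG11 and SNHG16, were lower with dTAG47 than with AGB1, against 5.10%. None was higher with dTAG47 than in DMSO (all genes 5.80%) or than with AGB1 (5.35%), or lower with AGB1 than in DMSO (6.75%), without overlap. No count here is a test of the set, and none of these hosts passed the adjusted threshold.

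Within the set, the 13 tested hosts with an annotated pyrimidine start had a median log2 fold change of -0.12 with dTAG47 against DMSO, 3 above 0 and 10 below. The 10 without one had a median of 0.01, 7 above 0 and 3 below. For dTAG47 minus AGB1 the medians were -0.12 with such a start and -0.07 without. The 10 without include SNHG9, SNHG26 and SNHG21, all under 5 CPM, at 0.01, 0.22 and 0.58 with dTAG47 (SE 0.28, 0.34 and 0.42). SNHG25, under 5 CPM too, is among the 13, at 0.12 (SE 0.62). The split rests on GENCODE starts. Near the RefSeq start, DANCR, SNHG7 and SNHG17 had a C and 4 pyrimidines, and GAS5, SNHG1 and SNHG3 had none. SNHG1 is among the 13 through 1 of its 25 transcripts. The 7 hosts of box C/D snoRNAs only stood at a median of -0.14 with dTAG47 and -0.10 with AGB1 against DMSO. These are the hosts with a named box C/D gene in the gene models, which leaves out GAS5; with GAS5 the medians of the 8 were -0.09 with dTAG47 and -0.06 with AGB1. The 10 hosts of box H/ACA snoRNAs only stood at -0.02 with dTAG47 and 0.04 with AGB1. These splits were made after the values had been seen and are given without a test.

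Host levels also differed between libraries of the same group. The median deviation of the 19 hosts at 5 CPM or more from their own mean was -0.00, -0.07 and -0.07 (log2) in dTAG47 1 to 3, 0.02, 0.09 and -0.02 in AGB1 1 to 3, and -0.03, 0.04 and 0.05 in DMSO 1 to 3. AGB1 2 was the highest library, with 17 of 19 hosts above their own mean, and dTAG47 2 the lowest, with 3 of 19. Without AGB1 2 the median for AGB1 minus DMSO was 0.00, against 0.05 with it (0.08 without AGB1 1 and 0.02 without DMSO 1), and that for dTAG47 minus AGB1 was -0.06. Without DMSO 3 the median for dTAG47 minus DMSO was -0.02, and without DMSO 1 it was -0.08. DMSO 1 and dTAG47 1 were the libraries with the lowest and the highest GC correlation. Leaving out both gave medians of -0.11 for dTAG47 minus DMSO and -0.13 for dTAG47 minus AGB1. Of 23 hosts, 3 and 2 lay above 0, and still 0 passed the threshold. With all libraries kept and the GC trend removed in the fit, these 2 medians were -0.03 and -0.11. In the main fit they were -0.04 and -0.09. The part of GC content in these shifts was not tested.

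Ribosomal protein mRNAs varied between the same libraries. They took 7.20%, 7.20% and 7.10% of counts in dTAG47 1 to 3, 7.16%, 7.42% and 7.29% in AGB1 1 to 3, and 6.85%, 7.38% and 7.64% in DMSO 1 to 3. The 3 libraries with the highest ribosomal protein share, DMSO 3, AGB1 2 and DMSO 2, were also the 3 with the highest host share, at 0.130%, 0.130% and 0.129%. For dTAG47 minus AGB1, 68 of 83 ribosomal protein genes lay below 0 with a median of -0.04, and 19 (22.9%) were lower without overlap, against 5.10% of all genes. Against DMSO, 0 of 83 passed with dTAG47, and 60 lay below 0 at a median of -0.04. With AGB1 43 lay below 0, at a median of -0.00. With AGB1 2 of 83 (2.41%) passed, against 0.104% of all genes, and RPL36 (0.28, edgeR adjusted p 0.0227) and RPLP1 (0.22, adjusted p 0.0227) rose. In RPL36 and RPLP1 all dTAG47 libraries also lay above all DMSO libraries. What part library composition has in the host values was not tested.

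**Figure D5:**
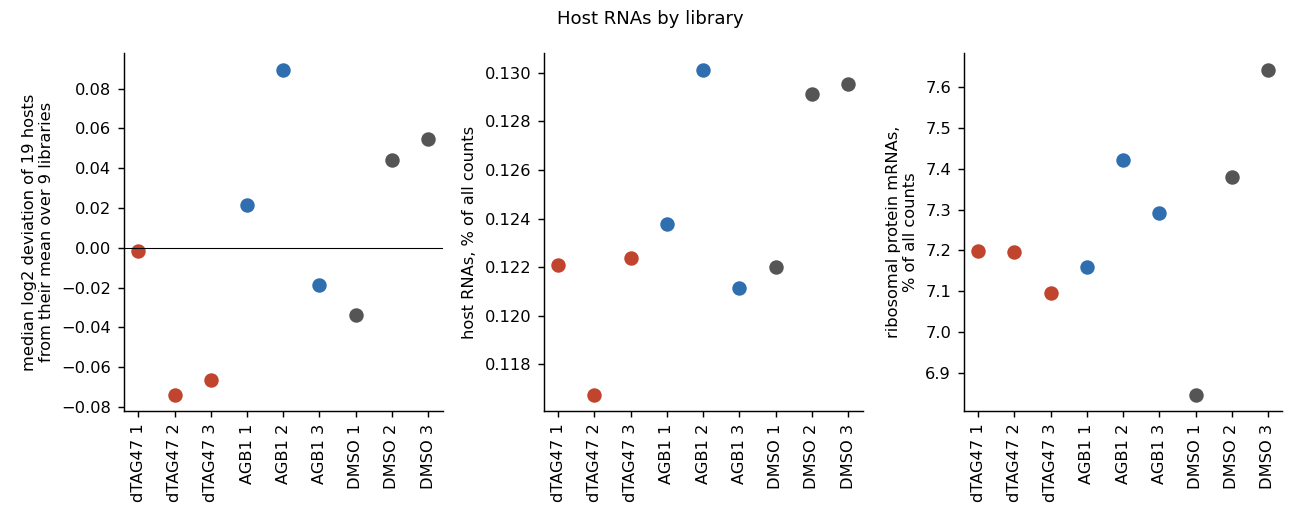
Left, median log2 deviation of the 19 hosts at 5 CPM or more from their mean over the 9 libraries; centre, host RNAs as a percentage of all counts; right, ribosomal protein mRNAs as a percentage of all counts, 1 point per library (axes of the last 2 panels do not start at 0). AGB1 2, DMSO 2 and DMSO 3 are the 3 highest libraries in all panels, and dTAG47 2 is the lowest in the left and centre panels.

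Other parts of the snoRNA and decay machinery were measured in the same libraries. The core box C/D proteins (4 of 4 tested) and box H/ACA proteins (4 of 4) had 0 genes past the threshold in any comparison. FBL, the methyltransferase of box C/D particles, stood at 0.03 (SE 0.05) with dTAG47 and 0.04 (SE 0.05) with AGB1 against DMSO. NOP56 and NOP58, its partners and themselves snoRNA hosts, stood at 0.02 and -0.08 with dTAG47 and at 0.10 and -0.03 with AGB1. DKC1, the pseudouridine synthase, stood at -0.01 with dTAG47 and 0.06 with AGB1, and NHP2, another box H/ACA protein, at 0.06 with dTAG47 (SE 0.07). For dTAG47 minus AGB1 the smallest p in these 2 lists belonged to NOP56 (-0.08) and DKC1 (-0.07). Of 10 assembly factors 0 passed, the smallest unadjusted p belonging to NOLC1, a nucleolar chaperone, at 0.14 with AGB1 (SE 0.04, edgeR adjusted p 0.362) and -0.12 for dTAG47 minus AGB1. With dTAG47 it was that of PIH1D1, a subunit of the R2TP assembly complex, at -0.10 (SE 0.08). Among 18 NMD and exon junction factors 0 passed, UPF1, the central helicase, standing at 0.10 (SE 0.06) with dTAG47 and 0.03 (SE 0.06) with AGB1 and the kinase SMG1 at -0.03 with dTAG47 and -0.04 with AGB1. The smallest unadjusted p belonged to SMG5, a decay adaptor, at 0.10 with dTAG47 (SE 0.05, edgeR adjusted p 0.686), to MAGOH, an exon junction core protein, at 0.18 with AGB1 (SE 0.08, adjusted p 0.576) and to SMG6, the NMD endonuclease, at -0.12 for dTAG47 minus AGB1 (SE 0.09).

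The mRNAs known as NMD targets lay mostly above 0, and 0 of the 10 tested passed the threshold in any comparison. With dTAG47, 9 lay above 0 at a median of 0.14, and with AGB1, 9 lay above 0 at a median of 0.11, both against the shared DMSO libraries. Of all 18319 genes, 9102 lay above 0 with dTAG47 and 9112 with AGB1. Without overlap, 4 of the 10 were higher with dTAG47 than in DMSO (all genes 5.80%) and 3 with AGB1 (6.56%). In both comparisons 0 were lower without overlap. Between the compounds 6 lay above 0 and 4 below, at a median of 0.04. GADD45A, a growth arrest gene, had 45.8, 39.5 and 41.8 CPM with dTAG47 and 31.3, 34.6 and 37.6 CPM in DMSO, at 0.29 (SE 0.09, edgeR adjusted p 0.352), and 0.20 for dTAG47 minus AGB1. ATF3, a stress-induced transcription factor, had 71.5, 68.4 and 70.1 CPM with AGB1 and 57.3, 59.3 and 55.4 CPM in DMSO, at 0.29 (SE 0.07, edgeR adjusted p 0.168). Both genes are also known to be induced through stress transcription programmes, and the cause of their values was not tested.

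The protein-coding genes that hold named snoRNAs by coordinates numbered 162, of which 154 were tested and 28 are ribosomal protein genes. None passed in any comparison. Their medians were -0.01 with dTAG47 and 0.01 with AGB1 against DMSO and -0.02 for dTAG47 minus AGB1, where 104 of 154 lay below 0. The smallest unadjusted p with dTAG47 was that of CHD3, a chromatin remodeller, at -0.20 (SE 0.06, edgeR adjusted p 0.312). With AGB1 it was that of MAGED4B, at 1.26 (SE 0.31, adjusted p 0.141), which had 5.28, 26.7 and 9.74 CPM with AGB1 and 7.05, 5.14 and 5.11 CPM in DMSO, AGB1 2 being the high library. MAGED4B also had the smallest p for dTAG47 minus AGB1, at -1.09 (SE 0.31, adjusted p 0.999). MAGED4B has a near-identical copy, MAGED4, between which reads may be split. Of 14 tested non-ribosomal 5′ TOP mRNAs 0 passed, with 12 below 0 for dTAG47 minus AGB1 and a median of -0.04. The smallest unadjusted p belonged to TPT1 with dTAG47 (-0.11, SE 0.05, edgeR adjusted p 0.633), to the initiation factor gene EIF3F with AGB1 (0.18, SE 0.05, adjusted p 0.279) and to the nucleolar chaperone NPM1 for dTAG47 minus AGB1 (-0.10, SE 0.04, adjusted p 0.999). Of 13 other noncoding snoRNA hosts 5 were tested and 0 passed, the smallest unadjusted p being that of AC105339.2 with dTAG47 (0.47, SE 0.59) and for dTAG47 minus AGB1 (0.63, SE 0.60), and of LINC02001 with AGB1 (-0.10, SE 0.11).

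The snoRNAs with enough counts for a test, 10 of the 129 inside the hosts, also gave 0 calls. SNORA73B, inside SNHG3, was the highest at 4.49, 3.64 and 3.37 CPM with dTAG47, 3.69, 4.90 and 4.18 CPM with AGB1, and 3.60, 4.89 and 3.75 CPM in DMSO, with log2 fold changes against DMSO of -0.09 (SE 0.22) with dTAG47 and 0.06 (SE 0.22) with AGB1. The groups overlapped, and with SEs from 0.22 to 0.91 over the 10 with dTAG47 the limits on these counts are wide. Poly(A) selection leaves most mature snoRNAs out, so the counts set no limit on mature snoRNA levels. Which RNA these reads came from was not tested. The smallest unadjusted p belonged to SNORA13 with dTAG47 (-0.87, SE 0.56), SNORA71B with AGB1 (0.54, SE 0.41) and SNORA71D for dTAG47 minus AGB1 (-1.47, SE 0.89). SNORD104, an intronic box C/D snoRNA, had 537 counts, against 154 for the exons of its host SNHG25, of which 51.4% of bases are unshared and the rest gave counts to neither gene.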

How the data were processed

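Each of the 9 deposited files gives raw whole-number counts for every Ensembl gene, as the authors made them, with no normalization. HISAT2, DESeq2 and hg38 are named, per the submitters' processing notes; their versions, the counter and whether it used strand are not given there. Start, end and strand of 58735 of 58735 deposited genes match GENCODE 29 (GRCh38), from which exons and transcript starts were read; promoters came from RefSeq. Groups and replicate numbers came from the titles.

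The counts were filtered with filterByExpr, scaled by TMM and fitted with the quasi-likelihood model of edgeR 4.0.16 (R 4.3.3), all 9 libraries in 1 fit with each group its own term. All tests were two-sided, with Benjamini-Hochberg adjustment over the 18319 tested genes and a threshold of 0.05. Standard errors were obtained from the log2 fold change and the F statistic, and intervals are at 95%. CPM use TMM-scaled totals, and RPKM divide these by exonic length, with the exons of all annotated transcripts joined. Depth ran from 27964128 to 44803380 counts, so counting limits cover counting error only, as the reads carry no molecular identifiers. Within each group, libraries differed by more than sampling noise, with a chi-square of 5.88 to 14.8 per degree of freedom. The fit was tested on simulated counts.

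The hosts and gene lists were chosen with earlier results of these data known. Every host is accounted for; values per library are given at 5 CPM or more or at an unadjusted p under 0.05, and from each list the genes past the threshold or, where there are none, that with the smallest p in each comparison, plus NOP56, NOP58, FBL, DKC1, UPF1 and SMG1. Alternatives were DESeq2 1.42.0, limma-voom (limma 3.58.1), other scalings and filters, only the 2 groups compared, a replicate block, a fit with the GC trend removed (lowess span 0.3) and leaving out each library. Leaving out DMSO 1 and dTAG47 1 together, and lengths without shared bases, were chosen after seeing the data.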

Additional observations from a re-analysis of the deposited data

How the results depend on the processing

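No host RNA passed the threshold in any of the 3 comparisons under any of 20 alternatives each. Leaving out 1 library at a time gave medians from -0.08 to -0.02 for dTAG47 minus DMSO, 0.00 to 0.08 for AGB1 minus DMSO and -0.13 to -0.06 for dTAG47 minus AGB1. Without DMSO 1 and dTAG47 1 together the first was -0.11, against -0.04 with all libraries, and of 123 values that answer a comparison this was the only 1 to move by more than the SD between libraries of a group (0.04 to 0.05 on the log2 scale); the cause was not tested. Smaller shifts, such as 0.00 against 0.05 for AGB1 minus DMSO without AGB1 2, were within that SD. Of 1377 fold changes of single hosts, 18 moved by 1 SE or more. Of the host levels per exonic length, 16 values moved by 1 SD or more, 0 of them with library totals used without TMM. The replicate block gave 0 host calls and medians of -0.04, 0.05 and -0.09; deviations of same-numbered libraries correlated by -0.16 to 0.07, so the numbers were not taken to pair the samples. Calls over all genes, in the order above, were 47, 67 and 0 by DESeq2, 43, 67 and 13 with no count filter, 22, 49 and 0 with the GC trend removed and 4, 22 and 0 with only the groups compared, against 11, 19 and 0. Without single libraries they ranged from 2 to 20, 6 to 55 and 0 to 2, with 20 and 55 reached without DMSO 3. Under 5 CPM, SEs were 0.28 or more; depth limits SNHG25, whose spread was no larger than counting gives, while SNHG9, SNHG26 and SNHG21 varied by more than counting gives.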

Other observations

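Every tested host except SNHG25 varied between libraries by more than counting gives, at low and at high levels. SNHG11 had a coefficient of variation of 16.0% over the 9 libraries, against 4.71% from counting at its mean count, SNHG9 28.8% against 10.3%, SNHG26 28.9% against 12.1% and SNHG21 38.1% against 15.1%. AGB1 2 was the highest library in SNHG11, SNHG19 and SNHG21, at 17.5, 11.2 and 2.11 CPM, and in the protein-coding snoRNA host MAGED4B, at 26.7 CPM. In SNHG26 the highest and lowest libraries were both DMSO, at 2.93 and 1.10 CPM. Even GAS5, the steadiest host, had 3.54% against 1.07%. Among the abundant hosts SNHG5 varied most, at 10.2% against 2.14% from counting. Without DMSO 1 the log2 fold change of SNHG5 was -0.35 with dTAG47 and -0.20 with AGB1.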
